A study of Mus musculus with 3 samples.

Results

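The clustered protocadherin genes are 3 neighbouring families of cadherin-like cell surface receptors, named alpha, beta and gamma, that lie side by side on mouse chromosome 18. Members were the rows of the expression table whose gene name is a Pcdha, Pcdhb, Pcdhga, Pcdhgb or Pcdhgc symbol and occurs once, which gave 56 of 51826 rows: 12 alpha, 22 beta and 22 gamma genes. Messenger RNA was profiled in ST2, an established stromal line from mouse bone marrow with osteoblast and adipocyte potential, with 1 library in each of 3 groups. The control cells received empty vector with control siRNA, the NELL2 overexpression cells received a NELL2 construct with control siRNA, and the Fn1 knockdown cells received empty vector with siRNA against Fn1, the gene of fibronectin 1. Each siRNA was used at 30 nM, and all 3 groups therefore went through both a plasmid and an siRNA transfection. The comparisons addressed what NELL2, a secreted glycoprotein, and fibronectin, a matrix glycoprotein, do to gene expression in these cells, and with 1 library a group every difference given here is a difference between libraries with no replicate check.

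Clustered protocadherins are best known from neurons, where each cell uses its own small set of members and the set acts as an identity tag. The extracellular cadherin repeats bind the same isoform on a neighbouring cell, and recognition of this kind lets the branches of one neuron avoid each other. Each member has its own promoter in front of a large variable exon, and the choice of promoter involves the insulator protein CTCF, the cohesin ring and DNA methylation. In the alpha and gamma clusters the variable exon is spliced to 3 constant exons that encode a cytoplasmic domain common to the whole cluster. Beta genes lack constant exons. The common cytoplasmic domains bind focal adhesion kinase (FAK) and its relative Pyk2, kinases that also act downstream of integrins.

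The gene models show how much sequence the members share. In GENCODE M21 on GRCm38 the alpha members span positions 36930184 to 37187661 of chromosome 18, the beta members 37264938 to 37524479 and the gamma members 37661793 to 37841873, all on the plus strand. Every one of the 22 gamma members had a main transcript model of 4 exons, in which both middle exons, of 59 and 89 bases, were the same for all members. The last exon began at the same base in all 22 and ended at 37841873 in 17 members and 3 bases earlier, at 37841870, in the other 5 (Pcdhga2, Pcdhga9, Pcdhgb1, Pcdhgb4 and Pcdhgb8). Its length was thus 1971 or 1968 bases, against a first exon of 2499 to 2961 bases that starts at the member's own promoter. A median of 56.6% of all 150-base windows of a gamma transcript, the length of 1 sequencing read, occurred in no other annotated gene, and for alpha members the median was 46.6% and the lowest 4.51%, for Pcdha4. The lowest gamma share was that of Pcdhga4, at 37.5%, followed by Pcdhgb2 at 52.9% and Pcdhgb1 at 53.8%. For beta members the median was 100%, with the lowest share, 93.3%, in Pcdhb21, whose exon overlaps that of Pcdhb22. How the authors' software divided fragments from shared exons between members is not given in the sources used here. Cluster sums are therefore given beside the single members.

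Values are FPKM, fragments scaled to transcript length and to the total of the library, as the authors deposited them. Sets of 3 values are given in the order control, NELL2 overexpression, Fn1 knockdown. Depth read from low values was about 23000000, 23700000 and 24200000 fragments. The targeted genes matched the labels, with Nell2 at 0.640, 326 and 1.06 FPKM and Fn1 at 2802, 2489 and 137 FPKM. A gene is called when log2(FPKM + 1) differs from the control by 1 or more, a 2-fold change on that scale, and its FPKM reaches 1 in either library. The scale understates changes of weakly expressed genes.

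The gamma genes carried most of the clustered protocadherin RNA. Their summed FPKM was 88.6 in the control library, against 6.39 for the beta and 0.745 for the alpha members. In at least 1 library, 20 of 22 gamma, 2 of 22 beta and 0 of 12 alpha members reached 1 FPKM. Pcdhgb8 and Pcdhgb1 together made up 48.8%, 54.5% and 29.7% of the gamma sum. In bulk RNA of this kind, fewer cells using a member and less of its RNA per cell cannot be told apart.

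**Figure D1:**
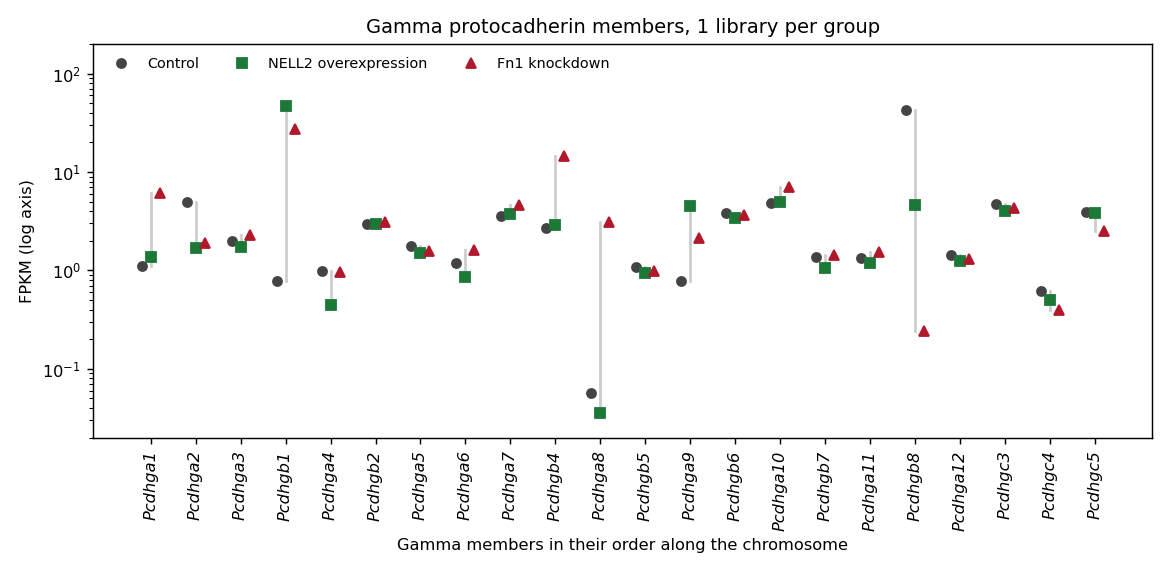
FPKM of the 22 gamma members (log axis) in the 3 libraries, in chromosomal order, with 1 symbol for each library and a grey line from the lowest to the highest. Pcdhgb8 is highest in the control (42.5 FPKM) and Pcdhgb1 in the other libraries (46.7 and 27.2 FPKM), while most other members have 3 values close together.

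With NELL2 overexpression, 4 members were called, all of them gamma genes, of the 20 members tested (19 gamma, 1 beta). Over all genes the rule called 82 of 12572, or 0.652%, with 0.374% higher and 0.278% lower. Pcdhgb1 and Pcdhga9 were higher and Pcdhgb8 and Pcdhga2 were lower. After Fn1 knockdown 6 members were called, again all gamma genes, of 22 tested (20 gamma, 2 beta), against 155 of 12574 genes in all, or 1.23%, with 0.684% higher and 0.549% lower. Pcdhgb1, Pcdhgb4, Pcdhga8 and Pcdhga1 were higher and Pcdhgb8 and Pcdhga2 were lower. Both comparisons use the same control library, so the 3 genes called in both are not independent findings. Pcdhgb1, Pcdhga9 and Pcdhga8 were under 1 FPKM in the control and passed the filter only through another library. The numbers tested thus depend in part on the differences themselves. With 0.1 FPKM as both pseudocount and filter, 6 and 9 of 41 members were called, and the calls were no longer all gamma genes. This rule added Pcdha9 (higher) and Pcdhga4 (lower) with NELL2 overexpression and Pcdha12, Pcdhb21 and Pcdhga9 (all higher) after Fn1 knockdown. Over all genes that rule called 7.1% (3.77% higher, 3.33% lower) with NELL2 overexpression and 8.76% (4.05% higher, 4.71% lower) after Fn1 knockdown.

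Pcdhgb8 (ENSMUSG00000103081.2, chromosome 18, 37761801 to 37841870) encodes a gamma-B receptor and is annotated as a polymorphic pseudogene, a gene whose reading frame is intact in some strains and not in others. It was at 42.5, 4.59 and 0.245 FPKM. It was the most abundant clustered protocadherin in the control, with 47.9% of the gamma sum, and followed Pcdhgb1 and Pcdhga10 with NELL2 overexpression, and its value after Fn1 knockdown was the lowest of all 22 gamma members. The difference on the log2 scale was -2.96 with NELL2 overexpression and -5.13 after Fn1 knockdown, and the ratio of FPKM itself was 0.108 and 0.00577. These values rest on about 2727, 304 and 17 fragments when the length of its coding model is used, and on about 4501, 502 and 27 with its longest model.

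Pcdhgb1 (ENSMUSG00000103037.1, chromosome 18, 37680233 to 37841870), another gamma-B receptor, took the opposite course. It was at 0.785, 46.7 and 27.2 FPKM. It held 0.887% of the gamma sum in the control and was the highest member in both other libraries, with 49.6% and 29.5%. The log2 differences were 4.74 and 3.98, corresponding to FPKM ratios of 59.5 and 34.7, from about 85 fragments in the control to about 5237 and 3107. Pcdhgb1 and Pcdhgb8 added together were at 43.2, 51.3 and 27.5 FPKM, or 119% and 63.5% of the control. Weighted by the coding length of each, which makes the sum proportional to fragments, the pair came to 191% and 106%. Weighted by the longest model it came to 121% and 64.9%, and by the length of all transcripts to 132% and 71.4%. After Fn1 knockdown the pair was thus above the control by coding length only.

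The other called members had lower levels. Pcdhga2 was at 4.99, 1.68 and 1.91 FPKM, lower than the control in both libraries, with log2 differences of -1.16 and -1.04 and FPKM ratios of 0.337 and 0.383. Pcdhga9 was at 0.772, 4.51 and 2.13 FPKM; its difference of 1.64 with NELL2 overexpression was called and that of 0.82 after Fn1 knockdown was not. Its FPKM ratios were 5.84 and 2.76, so the second value missed the rule on the log2(FPKM + 1) scale only.

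Higher values in the Fn1 knockdown library alone were listed for 3 members. Pcdhgb4 was at 2.71, 2.88 and 14.4 FPKM, a log2 difference of 2.05 after knockdown and of 0.06 with NELL2 overexpression. Pcdhga1, the first gene of the cluster, was at 1.11, 1.35 and 6.18 FPKM, with log2 differences of 0.16 and 1.77. Pcdhga8 was at 0.0569, 0.0360 and 3.08 FPKM, on about 6, 4 and 352 fragments, and its log2 difference after knockdown was 1.95. In all of these the control and NELL2 overexpression values lay close together and the Fn1 knockdown value stood apart. In the order along the chromosome Pcdhga8 is the next gene after Pcdhgb4.

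The other 15 gamma members were called in neither comparison, a choice that by itself limits how far their values differ. Their log2 differences ran from -0.47 to 0.06 with NELL2 overexpression and from -0.47 to 0.44 after Fn1 knockdown. The ratio of the highest to the lowest of a member's 3 values was 1.29 in the median, 1.04 at the lowest and 2.27 at the highest, and was under 2 in 14 of the 15. Pcdhgb2 had the lowest ratio, at 2.97, 2.97 and 3.07 FPKM. Pcdhga10 was the highest of this group, at 4.87, 4.92 and 6.97 FPKM, and Pcdhgb6 was at 3.84, 3.42 and 3.66 FPKM.

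The other A-type genes called in neither comparison were lower. Pcdhga7 was at 3.58, 3.78 and 4.57 FPKM, Pcdhga3 at 2.01, 1.73 and 2.28 FPKM and Pcdhga5 at 1.77, 1.52 and 1.59 FPKM. Pcdhga6 was at 1.20, 0.862 and 1.61 FPKM, Pcdhga11 at 1.33, 1.18 and 1.53 FPKM and Pcdhga12 at 1.43, 1.25 and 1.31 FPKM. Pcdhga4, at 0.997, 0.440 and 0.963 FPKM, had the widest spread of the 15, with an FPKM ratio of 0.441 with NELL2 overexpression, and was under 1 FPKM in every library. Among B-type genes, Pcdhgb5 was at 1.07, 0.941 and 0.981 FPKM and Pcdhgb7 at 1.38, 1.05 and 1.43 FPKM.

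**Figure D2:**
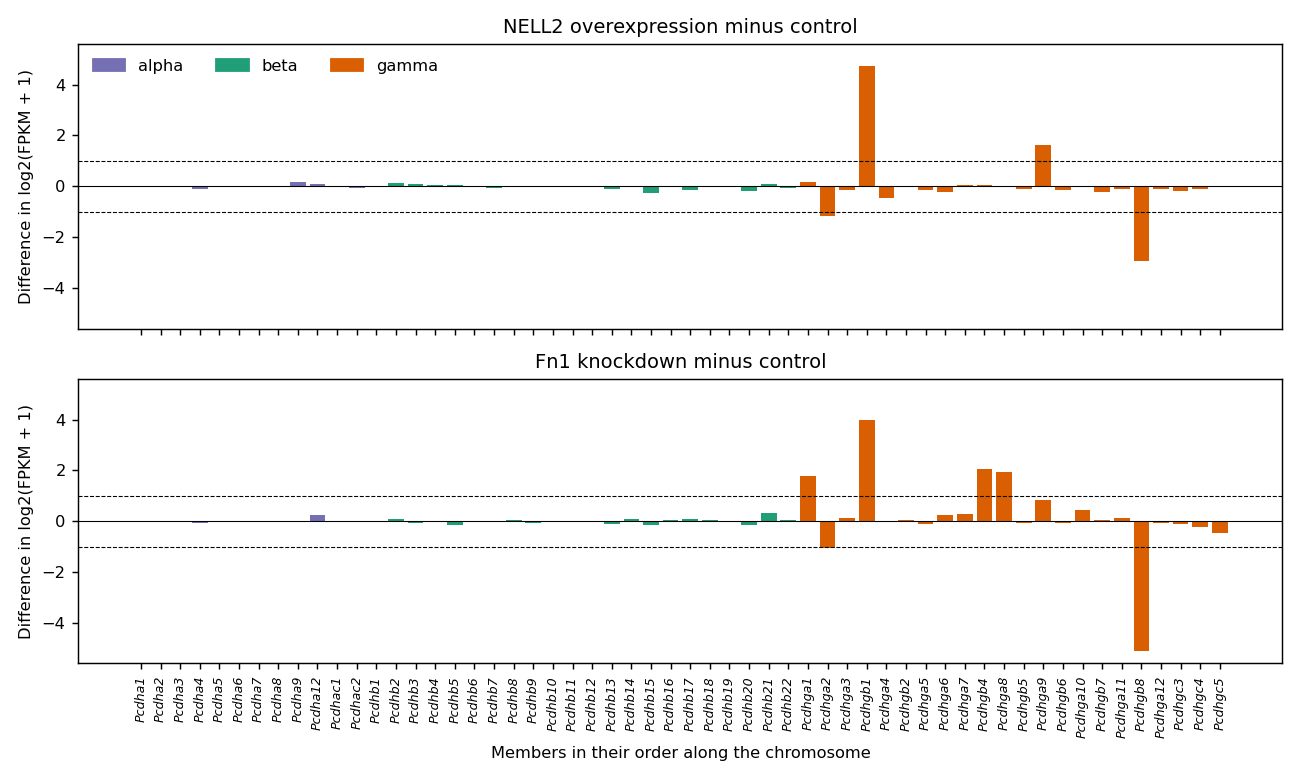
Difference in log2(FPKM + 1) from the control for all 56 members in chromosomal order, with NELL2 overexpression (top) and Fn1 knockdown (bottom), bars coloured by cluster and dashed lines at the 2-fold rule. Bars past a dashed line occur among gamma members, 4 in the upper and 6 in the lower panel, and the longest alpha or beta bar is that of Pcdhb21, at 0.30 after Fn1 knockdown.

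Large as the single differences were, the gamma sum was nearly level. It was 88.6, 94.2 and 92.3 FPKM, or 106% and 104% of the control. The 7 members called in either comparison added up to 52.9, 61.8 and 55.2 FPKM, and the 15 called in neither to 35.7, 32.4 and 37.2 FPKM. By coding length the 7 came to 169% and 153% of the control, against 117% and 104% by FPKM. By the longest model they came to 119% and 106%. The part of the gamma sum of FPKM in the called members was 59.7%, 65.6% and 59.8%. The members that made up this part differed from library to library, with Pcdhgb8 leading in the control, Pcdhgb1 with NELL2 overexpression, and Pcdhgb1 and Pcdhgb4 after Fn1 knockdown.

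**Figure D3:**
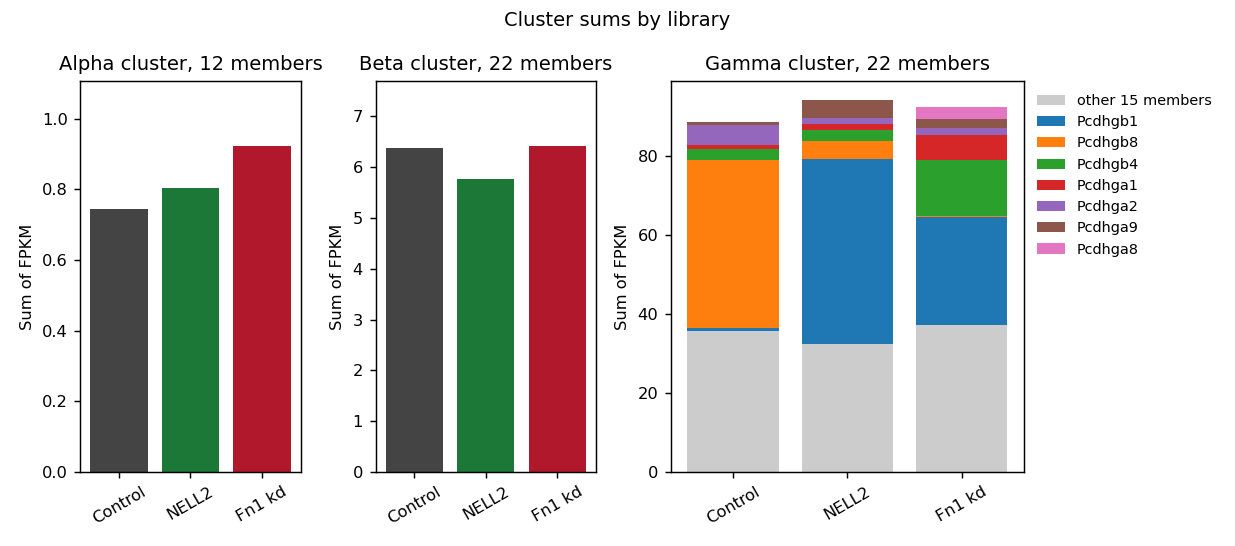
Sums of FPKM in each library for the alpha, beta and gamma clusters (separate linear axes from 0), with the gamma bars divided into the 7 members called in either comparison and the other 15; Fn1 kd stands for Fn1 knockdown. The gamma bars are of similar height (88.6, 94.2 and 92.3 FPKM) while the coloured members that fill them differ.

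The size of the gamma sum depended on the transcript length used to weight it. FPKM sums count transcripts, and sums weighted by length are proportional to fragments. With the median length of coding models the gamma fragments came to 132% of the control in both libraries, and several members have short coding models. Pcdhgb8 in the control had about 2727 fragments by coding length and 4501 by the longest model, and Pcdhgc5 about 53 and 423. With the longest model of each member the gamma fragments came to 107% and 105%.

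Within the gamma cluster the sums were also taken by subfamily. The 12 A-type members added up to 24.1, 23.3 and 34.1 FPKM, or 96.4% and 141% of the control, with Pcdhga1 and Pcdhga8 among the members higher after Fn1 knockdown. The 8 A-type members called in neither comparison added up to 17.2, 15.7 and 20.8 FPKM. The 7 B-type members added up to 55.2, 62.6 and 51.0 FPKM, or 113% and 92.4% of the control. By coding length the B-type sum was 160% and 134%, above the control in both libraries, and the A-type sum 97.0% and 139%. By the longest model the B-type sum was 115% and 93.7%, and by the length of all transcripts 123% and 101%. The 4 B-type members that were called in neither comparison added up to 9.25, 8.37 and 9.14 FPKM. Without Pcdhgb1 and Pcdhgb8 the B-type sum had log2 ratios of -0.09 and 0.98, the latter with Pcdhgb4 at 14.4 FPKM. The 3 C-type members, which in neurons are used more broadly than the others, added up to 9.23, 8.35 and 7.21 FPKM. Pcdhgc3 was at 4.73, 3.98 and 4.29 FPKM, Pcdhgc5 at 3.88, 3.86 and 2.53 FPKM and Pcdhgc4 at 0.612, 0.503 and 0.392 FPKM. All 3 C-type values were lower than the control in both libraries and none was called. The most negative of these differences was -0.47, for Pcdhgc5 after Fn1 knockdown.

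The called genes were compared with the gene models after their values had been seen. All 4 members called with NELL2 overexpression belonged to the 5 whose last exon ends at 37841870, as did 4 of the 6 called after Fn1 knockdown, the others being Pcdhga1 and Pcdhga8. Over all genes the rule called 0.652% and 1.23%. The 5 members together were at 51.7, 60.4 and 45.9 FPKM, or 117% and 88.7% of the control, and 170% and 133% when weighted by coding length. The 17 members with the longer last exon were at 36.8, 33.8 and 46.4 FPKM, or 91.7% and 126%, and 91.1% and 131% by coding length. The values of both sets after Fn1 knockdown thus differed by FPKM and lay close together by coding length. They stood apart by the longest model, at 90.2% and 126%, and by the length of all transcripts, at 96.8% and 129%. Pcdhgb4, the remaining gene of the 5, was called after Fn1 knockdown, so each of the 5 was called in at least 1 comparison. Whether this 3-base difference in the models had any part in the values was not tested.

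Other annotated genes overlap the constant exons. Gm38182, annotated as a noncoding processed transcript that overlaps exons of all 22 gamma members on the same strand, was at 8.62, 0.125 and 2.29 FPKM. By the same rule it was called lower in both comparisons, with log2 differences of -3.10 and -1.55. Adding it to the gamma sum gave 97.2, 94.3 and 94.6 FPKM, or 97.0% and 97.3% of the control. Weighted by coding length the sum with it was 129% and 130% of the control. Gm37013, Gm37388 and Gm42416, which join alpha and gamma exons in the annotation, were listed at 0 in all libraries. Antisense genes whose exons overlap gamma members were low: Gm26672 was at 1.69, 1.46 and 1.28 FPKM, BC037039, which overlaps Pcdhgc3, at 1.15, 0.709 and 0.602 FPKM, and Gm37165, which overlaps Pcdhga7 and Pcdhga8, at 0.326, 0.604 and 0.763 FPKM. The use of strand in counting is not stated in the sources used here, so reads of these genes and of their partners cannot be told apart.

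The beta genes, each with its own exon, gave a contrast in which fragments are hardly shared. Their sum was 6.39, 5.76 and 6.41 FPKM, or 90.2% and 100.4% of the control. This corresponds to about 613, 572 and 668 fragments. With exact binomial 95% intervals for counting error alone, the fragment ratio was 90.4% (80.5% to 101%) and 104% (92.6% to 116%). No beta member was called in either comparison, with 1 and 2 members tested. The shares of 0.652% and 1.23% called over all genes would also give this count.

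Pcdhb17 was the highest beta gene, at 1.16, 0.935 and 1.31 FPKM, followed by Pcdhb22 at 0.971, 0.865 and 1.04 FPKM. By the mean of the 3 libraries Pcdhb5 (0.504, 0.561 and 0.355 FPKM) and Pcdhb16 (0.460, 0.463 and 0.497 FPKM) came next and were level. Pcdhb15 and Pcdhb20 were of the same order, and Pcdhb15 was higher than both in the control. Pcdhb15 had the most negative beta difference, -0.27 with NELL2 overexpression, at 0.574, 0.307 and 0.429 FPKM on about 37, 20 and 29 fragments. Pcdhb21 had the most positive, 0.30 after Fn1 knockdown, and was listed at 0, 0.0744 and 0.233 FPKM; its exon overlaps the start of Pcdhb22. Pcdhb1, the beta gene nearest to the alpha cluster, was listed at 0 in all 3 libraries. The other 14 beta members had highest values from 0.0294 FPKM (Pcdhb10) to 0.385 FPKM (Pcdhb2).

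Among the 19 beta members with values above 0 in every library, the ratio of the highest to the lowest value was 1.40 in the median and ran from 1.08 to 2.32, with 18 of 19 under 2, on about 2 to 124 fragments in the control. A ratio could not be formed for the other 3, Pcdhb1, Pcdhb10 (0.0294, 0 and 0.0274 FPKM) and Pcdhb21, whose values of about 0, 8 and 27 fragments are therefore not covered by this range. Over the 22 gamma members the median was 1.48 and the range 1.04 to 173. The 3 widest ratios were those of Pcdhgb8 (173), Pcdhga8 (85.7) and Pcdhgb1 (59.5). With 1 library a group, the spread of a member between cultures of the same treatment was not measured.

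**Figure D4:**
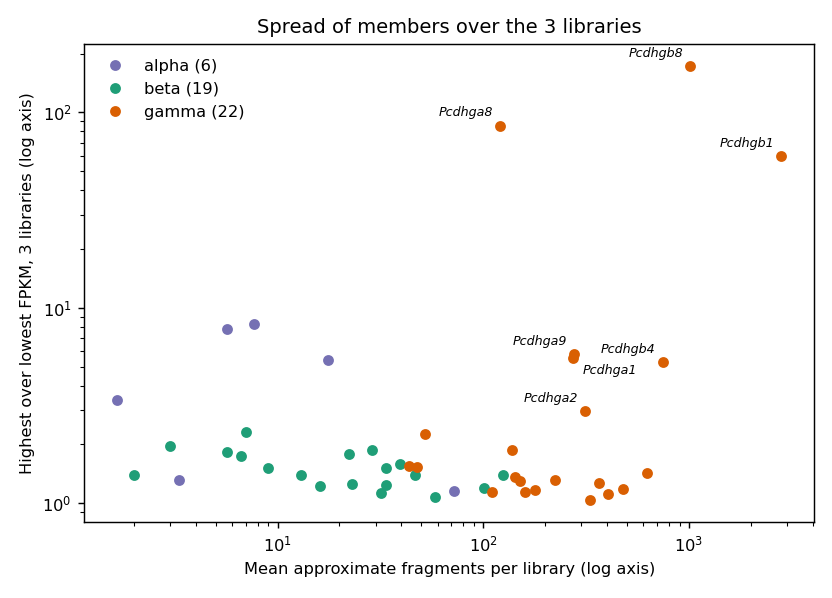
Ratio of the highest to the lowest FPKM over the 3 libraries against the mean approximate number of fragments, both on log axes, for the 47 members above 0 in every library (6 alpha, 19 beta, 22 gamma). The 9 members with a value of 0 are not drawn, Pcdhb21 among them. The 19 beta points lie at 2.32 or below, and the 7 named gamma members, which were selected by the size of their difference, reach 173 (Pcdhgb8). The 6 alpha points run from 1.15 (Pcdhac2) to 8.28 (Pcdha9, on about 2, 17 and 4 fragments).

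The alpha genes were close to the limit of detection. No member reached 1 FPKM in any library, 2 (Pcdha2 and Pcdha7) were listed at 0 throughout, and the sum was 0.745, 0.804 and 0.922 FPKM, on about 97, 108 and 126 fragments. The fragment ratios were 108% (81.2% to 143%) and 124% (93.9% to 163%) of the control by the same interval. Both intervals include the control level, so a difference in this sum of members was not resolved at this depth. Pcdhac2, a C-type gene and the last of the cluster, made up 71.2%, 59.3% and 59.7% of the alpha sum and was steady at 0.530, 0.477 and 0.550 FPKM. Pcdhac1, the other alpha C-type gene, was listed at 0, 0 and 0.00763 FPKM.

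The remaining alpha values were small and uneven. Pcdha12 was at 0.0460, 0.122 and 0.249 FPKM, on about 6, 15 and 32 fragments, Pcdha9 at 0.0162, 0.134 and 0.0324 FPKM, on about 2, 17 and 4, and Pcdha4 at 0.103, 0.0133 and 0.0428 FPKM, on about 11, 1 and 5, with nearly all of its windows shared with other genes. For each of these a different library was the highest. The other 5 members did not exceed 0.0315 FPKM, the value of Pcdha5 with NELL2 overexpression. The name Pcdha11 stood on 2 rows, since the annotation gives it to 2 genes, and neither row is a member. They were listed at 0.392, 0.357 and 0.0771 FPKM and at 0.144, 0.0159 and 0.00311 FPKM, and with them the alpha sum was 91.9% and 78.2% of the control, below the control where the sum of members alone was above it.

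The genes that act on the protocadherin promoters were mostly expressed in all libraries. The counts for these and the following lists stand against 0.652% and 1.23% of all genes called, shares at which lists of this size hold about 0 calls. Of the 11 CTCF and cohesin genes, all reached 1 FPKM and 0 were called in either comparison, with median log2 differences of -0.07 and -0.10 against 0.0072 and -0.0028 for all genes tested. Ctcf itself, the insulator protein, was at 20.9, 18.5 and 19.0 FPKM, the cohesin ring subunits Rad21 and Smc1a were at 53.3, 52.8 and 49.6 FPKM and at 27.9, 24.5 and 19.7 FPKM, and Pds5a, a cohesin regulator, was at 26.5, 26.1 and 18.9 FPKM. Of 12 methylation and silencing genes, 10 were tested and 0 called, with medians of -0.05 and -0.12. Dnmt1, the maintenance DNA methyltransferase, was at 42.0, 37.4 and 25.3 FPKM, its partner Uhrf1 at 23.6, 22.5 and 15.6 FPKM, and the corepressor Trim28 at 68.3, 67.9 and 63.2 FPKM. Dnmt3b, the de novo enzyme that marks protocadherin promoters during development, was at 0.528, 0.740 and 0.509 FPKM.

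Among 20 genes for cytoplasmic partners and processing enzymes, all tested, 0 were called with NELL2 overexpression and 1 after Fn1 knockdown, against 0.652% and 1.23% of all genes. That gene was Rac1, a GTPase that drives the actin regulator WAVE, at 123, 117 and 45.6 FPKM. Nckap1, a WAVE complex subunit, was at 69.7, 70.9 and 75.3 FPKM and Ncstn, a subunit of the gamma-secretase that cleaves protocadherins, at 63.5, 68.6 and 80.6 FPKM. Ptk2, the gene of FAK, was at 24.4, 25.2 and 27.9 FPKM and Ptk2b, that of Pyk2, at 5.58, 4.56 and 5.26 FPKM; both were chosen for their role after the values had been seen.

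The nonclustered protocadherins are single genes outside the clusters, and 2 of the 12 listed, Pcdh1 and Pcdh12, lie within 500 kb of them. With 5 and 4 genes tested, 0 were called, at shares of 0.652% and 1.23% over all genes. The levels were led by Pcdh19 at 33.4, 30.1 and 26.2 FPKM, Pcdh7 at 35.6, 30.5 and 20.3 FPKM and Pcdh18 at 9.48, 8.63 and 10.9 FPKM. In the control each of these was above every gamma member except Pcdhgb8. The list had medians of -0.15 over 5 genes and -0.31 over 4 genes tested. Of 18 other cadherin genes 7 and 8 were tested and 0 were called, the highest being Cdh11, a mesenchymal cadherin, at 96.4, 96.1 and 90.1 FPKM, Cdh2 (N-cadherin) at 58.0, 53.2 and 52.8 FPKM and the giant cadherin Fat1 at 52.3, 42.8 and 38.6 FPKM.

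Apart from Gm38182, which overlaps exons of members and was called lower, no gene around the clusters was called. Of 60 annotated genes in the table that lie within 500 kb of the outermost members and share no exon with them on the same strand, 23 and 22 were tested and 0 were called, with medians of -0.03 and 0.06, a count that the shares of 0.652% and 1.23% over all genes would also give. Slc35a4, a solute carrier gene, came closest to a call, at 41.6, 20.96 and 25.8 FPKM with log2 differences of -0.96 and -0.67. The highest were the respiratory chain gene Ndufa2 at 77.0, 88.1 and 80.4 FPKM, the splicing factor gene Ik at 58.3, 55.5 and 57.0 FPKM and Hars, for histidyl-tRNA synthetase, at 48.7, 47.7 and 55.9 FPKM. Diaph1, which follows the gamma constant exons on the other strand, was at 15.6, 15.2 and 16.7 FPKM, and Taf7, between the beta and gamma clusters, at 1.14, 1.12 and 1.22 FPKM, and these genes and Slc35a4 were chosen after the values had been seen.

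Markers of the labelled cell type and of others were checked because the members are known mainly from neurons. All 8 stromal markers were above 1 FPKM, among them the collagen genes Col1a1 at 1494, 1601 and 1352 FPKM, Col1a2 at 897, 957 and 848 FPKM and Col3a1 at 173, 193 and 169 FPKM, and their sum was 2703, 2913 and 2506 FPKM. Of 10 neuronal markers, 1 reached 1 FPKM, Tubb3 at 6.06, 5.96 and 11.7 FPKM, a tubulin gene with some expression outside neurons. Rbfox3 and Gad1 were listed at 0 in all libraries, and the sum of the neuronal list was 7.16, 6.95 and 12.5 FPKM, so its higher value after Fn1 knockdown was that of Tubb3. Of 5 glial markers only Mbp (3.17, 3.13 and 2.79 FPKM) reached 1 FPKM, of 4 endothelial markers only Kdr did (0.914, 0.812 and 1.33 FPKM), and none of the 4 blood and 4 epithelial markers measured did.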

How the data were processed

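RNA of 3 libraries of ST2 cells was enriched with oligo(dT) beads and sequenced by the authors on an MGISEQ-2000, giving paired reads of 150 bases that were mapped to mouse transcripts with HISAT2. The deposited values are FPKM per gene. GRCm38 and DESeq are named in the submitters' processing notes. The program behind the FPKM values and the annotation release are not given in the sources used here. No count test could be applied, and no p-value was computed.

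Members, gene lists, the 2-fold rule, the pseudocount of 1 FPKM and the filter of 1 FPKM were chosen with earlier results of these data known. Named were members at 1 FPKM or more, and members whose call changes under an alternative, of each list the called genes and the 3 of highest mean FPKM, and genes at 1 FPKM or more that overlap a member's exon on the same strand. In the marker lists, genes the rule allows that stayed under 1 FPKM are not given. Other genes named, among them antisense genes, weakly expressed alpha and beta members and single markers, were chosen after their values were seen.

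Names were matched to GENCODE M21 (GRCm38), which held all 56 members. Windows were counted on the transcripts of that release, on the sense strand. The worth of 1 fragment was taken as the mode of small FPKM times length values over genes with 1 transcript of 600 bases or more. Fragment numbers are approximate, use the median coding length unless stated, and their 95% intervals (exact binomial, SciPy 1.17.1) cover counting error only. Median-of-ratios factors were 0.998, 1.00 and 0.998.

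No sequence of these genes is printed here.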

Additional observations from a re-analysis of the deposited data

How the results depend on the processing

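No paired analysis was possible because no group held more than 1 library, which also precluded leaving replicates out. The member counts, 4 with NELL2 overexpression and 6 after Fn1 knockdown, were 2 and 3 with a pseudocount of 5 FPKM (0.207% and 0.398% of all genes), 2 and 4 of only 2 and 5 tested with a filter of 5 FPKM (0.535% and 1.34%), and 2 and 3 with a 4-fold cutoff (0.127% and 0.175%). Pcdhgb1 and Pcdhgb8 were called in every one of these settings. Pcdhgb1, Pcdhga1 and Pcdhgb4 were under 5 FPKM in the control and passed that filter only through another library. With a pseudocount and a filter of 0.1 FPKM the counts were 6 and 9, against 7.1% and 8.76% of all genes. A pseudocount of 5 FPKM took the calls from Pcdhga2 (-0.58 and -0.53), from Pcdhga9 with NELL2 overexpression (0.72) and from Pcdhga1 (0.87) and Pcdhga8 (0.68) after Fn1 knockdown. A pseudocount of 0.1 FPKM added Pcdhga9 after Fn1 knockdown (1.35). The other 126 of 132 values, which cover the 22 members at 1 FPKM or more, stayed on their side of 2-fold. Below 1 FPKM, Pcdha9, Pcdhga4, Pcdha12 and Pcdhb21 crossed it with 0.1 FPKM as pseudocount and filter.

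The log2 ratio of the gamma sum, 0.09 with NELL2 overexpression and 0.06 after Fn1 knockdown, was 0.40 and 0.40 weighted by coding length, 0.15 and 0.15 by the length of all transcripts, and -0.043 and -0.039 with the overlapping genes. With the overlapping genes and coding length together it was 0.37 and 0.38. By FPKM without Pcdhgb1 it was -0.89 and -0.43, and without Pcdhgb1 and Pcdhgb8 -0.080 and 0.52. The median of the member differences was -0.10 with NELL2 overexpression. The B-type sum (0.18 and -0.11) became 0.68 and 0.42 by coding length, and -0.088 and 0.98 without Pcdhgb1 and Pcdhgb8. By the longest model the B-type sum was 115% and 93.7% of the control. The alpha sum (0.11 and 0.31) was 0.61 and 0.79 without Pcdhac2, and -0.35 after Fn1 knockdown with the overlapping genes. The weighting by the longest model, chosen after seeing the data, moved no cluster sum beyond its counting interval. The changes without single members and with overlapping genes follow from the members left out or added. The length weightings differ only in the length given to each member. Pcdhgb8 in the control had about 2727 fragments by coding length and 4501 by its longest model. How much of each shift came from single members was not tested. Depth limits the alpha values most.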
